A study of Mus musculus with 36 samples.

Results

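Naive pluripotency is held by a small set of transcription factors, and 8 of them are described here gene by gene: Nanog, Esrrb, Nr5a2, Tfcp2l1, Nr0b1, Prdm14, Tbx3 and Zfp42. The rule names them and uses no measured value, but they were chosen with earlier results of these data known. Shares of all genes given beside them are therefore a description and no unbiased test of the set. All 8 were found among the 49671 genes of the count table. Each also passed the filter on low counts, which left 17702 genes for testing. The study asked how substrate stiffness acts on mouse embryonic stem cells (mESCs) and on the signals that keep them pluripotent. Wild-type cells with the strain label 129m wt were grown on soft StemBond hydrogels, stiff StemBond hydrogels or tissue culture plastic, all coated with fibronectin. StemBond gels are polyacrylamide gels that bind matrix protein firmly at any stiffness. Bulk RNA was sequenced from 36 libraries in 11 groups.

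Serum was common to every group. Cultures of 24 h were sampled on both gels with LIF added. Cultures of 48 h on both gels had serum alone or serum with LIF, PD03 or the pair, and those on plastic had LIF. LIF is the cytokine that sustains self-renewal through STAT3, and PD03 inhibits MEK, the kinase that activates ERK. The soft serum + PD03 group held 6 libraries and the other 10 groups held 3 each. No label says that replicates came from separate cultures, so p-values measure the spread between these libraries, which may be technical. The study also kept a reporter line with a fluorescent protein at the Zfp42 locus, but the labels give the sequenced cells as wild type.

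In the naive state, LIF and a low level of ERK signalling keep a network of factors active that bind one another's regulatory regions. ERK activity pushes cells towards the formative state, in which most of these factors are lost. The 8 genes take different places in this network. Tfcp2l1 is a direct target of STAT3, and Tbx3 is a T-box factor that responds to LIF and phosphoinositide 3-kinase signalling. Nanog is the homeodomain factor that lets mESCs self-renew without LIF when it is overexpressed. Esrrb and Nr5a2 are nuclear receptors that bind near Nanog and Pou5f1, and Nr0b1 is an atypical nuclear receptor that acts as a co-repressor of Nr5a2. Prdm14 represses FGF receptor and de novo DNA methyltransferase genes, and Zfp42 encodes REX1, the zinc finger protein most used to report the naive state.

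Total counts ranged from 10405696 to 26635239 per library. The sample descriptions name 3 sequencing pools. Soft and stiff libraries shared a pool at 24 h. Among 48-hour libraries, those on stiff gels belong to the second pool, with 1 exception in serum + LIF, and those on soft gels to the third pool, with 2 exceptions in serum + PD03, so that substrate and pool can hardly be told apart there. Embryonic stem cell markers (Pou5f1, Sox2, Sall4, Utf1 and Dppa5a) summed to between 2779 and 3531 CPM (counts scaled to a common library size) in every library, and each of the 5 had a mean of at least 103 CPM in every group. In bulk RNA, fewer cells that express a gene and less of its RNA per cell cannot be told apart. The count columns name the group but no replicate number, so the first, the second and the third library of a group are names by column order only. Expression is given as CPM scaled by TMM, a normalisation that makes library sizes comparable. Between genes, levels are compared only per kilobase, of exon or of coding sequence as stated.

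The members lie on 6 chromosomes of GRCm38. Nanog (ENSMUSG00000012396) is at chr6:122707489-122714633 on the plus strand, Esrrb (ENSMUSG00000021255) at chr12:86361117-86521628 on the plus strand and Nr5a2 (ENSMUSG00000026398) at chr1:136842571-136960448 on the minus strand. Tfcp2l1 (ENSMUSG00000026380) is at chr1:118627945-118685168 on the plus strand, Nr0b1 (ENSMUSG00000025056) at chrX:86191764-86195947 on the plus strand and Prdm14 (ENSMUSG00000042414) at chr1:13113457-13127163 on the minus strand. Tbx3 (ENSMUSG00000018604) is at chr5:119670669-119684724 on the plus strand and Zfp42 (ENSMUSG00000051176) at chr8:43295063-43306980 on the minus strand. The pseudogenes Nanog-ps1 and Nanog-ps2 held at most 4 and 3 counts in a library, against at least 2419 for Nanog. The antisense gene Tbx3os1 overlaps Tbx3 and held at most 25 counts, against at least 974 for Tbx3. The gene models Gm22094, Gm28882 and Gm23497 overlap Tfcp2l1.

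The 250 bases before the start site are shown for 4 members that took 3 different courses when PD03 was added: Nanog and Tfcp2l1, which rose, Nr0b1, which fell, and Zfp42, which passed the test in 1 of 4 comparisons. The sequences come from RefSeq on GRCm38.p6, 5′ to 3′ on the strand of the gene, with matches to the searched letters in capitals.
Nanog, chr6:122707239-122707488: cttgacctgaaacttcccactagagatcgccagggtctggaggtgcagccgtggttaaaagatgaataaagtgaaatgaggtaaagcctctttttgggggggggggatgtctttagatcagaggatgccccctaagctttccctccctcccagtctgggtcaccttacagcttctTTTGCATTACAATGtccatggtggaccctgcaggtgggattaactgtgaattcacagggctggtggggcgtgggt
Tfcp2l1, chr1:118627695-118627944: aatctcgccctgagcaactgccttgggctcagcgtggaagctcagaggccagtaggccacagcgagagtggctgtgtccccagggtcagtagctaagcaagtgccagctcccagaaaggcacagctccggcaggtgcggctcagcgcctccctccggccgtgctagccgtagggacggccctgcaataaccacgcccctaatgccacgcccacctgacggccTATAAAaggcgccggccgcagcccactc
Nr0b1, chrX:86191525-86191774: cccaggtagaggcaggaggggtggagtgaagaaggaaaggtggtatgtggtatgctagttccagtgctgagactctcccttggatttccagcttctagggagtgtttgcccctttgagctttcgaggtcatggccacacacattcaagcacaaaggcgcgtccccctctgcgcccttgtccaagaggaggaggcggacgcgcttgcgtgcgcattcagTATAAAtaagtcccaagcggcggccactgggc
Zfp42, chr8:43307010-43307259: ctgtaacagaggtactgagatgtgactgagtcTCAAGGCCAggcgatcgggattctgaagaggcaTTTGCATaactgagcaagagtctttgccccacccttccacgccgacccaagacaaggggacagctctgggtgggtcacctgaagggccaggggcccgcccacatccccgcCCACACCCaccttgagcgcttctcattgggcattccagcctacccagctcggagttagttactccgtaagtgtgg
Both strands were searched for 7 motifs in the 6 members that have a promoter in the table, which lacks Prdm14 and Tbx3. The Nanog stretch holds the composite of OCT4 and SOX2, that is the SOX letters CATTGT, any 1 base and the octamer core ATGCAAA, on the reverse strand, with its first base 75 bases before the start site. This composite was found in 2 of 32851 promoters of the same length (0.00609%). Both entries belong to Nanog. The octamer core itself (4.12% of promoters) lies inside it and also stands alone in Zfp42, 185 bases before the start. Zfp42 further holds the NR5A letters TCAAGGCCA (0.511% of promoters) 218 bases and the KLF letters GGGTGTGG (3.2%) 75 bases before its start. TATAAA (12.4% of promoters) begins 28 bases before the start of Tfcp2l1 and 32 bases before that of Nr0b1. Of the members not printed, Esrrb holds the STAT letters TTCNNNGAA (7.02%) and Nr5a2 holds TATAAA, while the ESRRB letters TCAAGGTCA (0.387%) were in none of the 6. A match describes the letters only and is neither a binding site nor a cause.

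The levels of the 8 genes across the 11 groups differed in shape. Nanog, Tfcp2l1, Tbx3 and Prdm14 were far higher in the 4 groups with PD03 than in the 7 without it. For Nanog the group means spanned 4.93-fold, from 176 ± 9.51 CPM (SD, n = 3) on stiff substrates in serum to 866 ± 29.7 (n = 6) on soft substrates in serum + PD03. Tfcp2l1 spanned 4.78-fold, Tbx3 8.98-fold and Prdm14 10.1-fold. Esrrb and Nr5a2 were also highest in a soft group with PD03, but spanned 1.98-fold and 2.22-fold, and both had their lowest mean on plastic. Plastic lay below the next group, stiff serum, in Nr5a2 (edgeR quasi-likelihood, adjusted p = 0.00054). In Esrrb these groups (247 and 260 CPM) did not pass the same test (adjusted p = 0.51). Nr0b1 ran the other way, with its highest mean on soft substrates after 24 h (160.4 ± 5.76 CPM) and its lowest on stiff substrates in serum + LIF + PD03 (40.6 ± 2.55). Zfp42 was the flattest member, spanning 1.31-fold between 428 ± 30.7 and 561 ± 18.9 CPM.

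**Figure D1:**
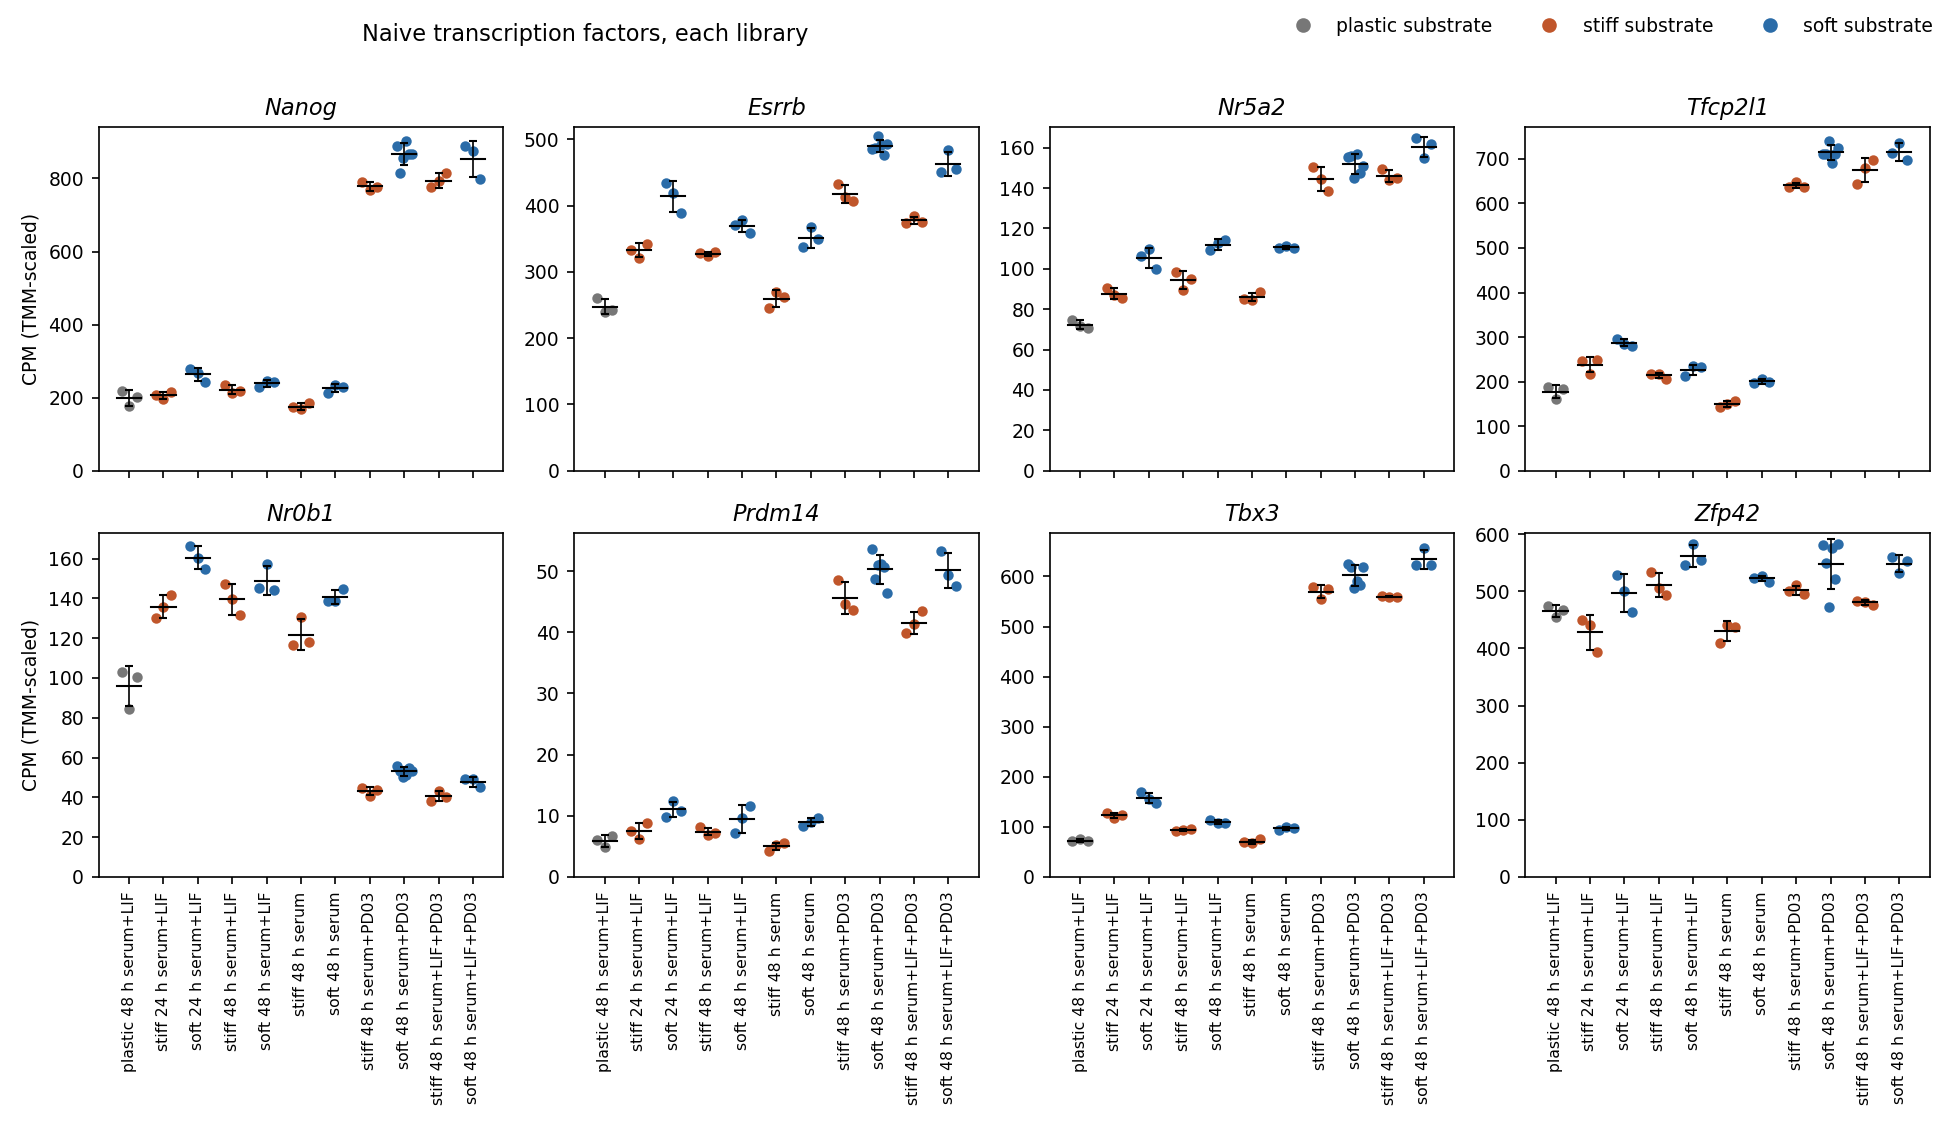
Expression of the 8 genes in every library, with 1 panel per gene. The x axis gives the 11 groups and the y axis CPM scaled by TMM from 0; points are libraries coloured by substrate, horizontal bars the group mean and error bars the SD (n = 3, or 6 on soft in serum + PD03). Nanog, Tfcp2l1, Prdm14 and Tbx3 stand apart in the 4 groups with PD03 on the right, Nr0b1 is lowest there, and Zfp42 stays between 393 and 583 CPM.

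Most neighbours in the order of group means did not pass the test against each other. Nanog had 1 of 10 neighbouring pairs that passed the test (edgeR quasi-likelihood, adjusted p under 0.05), namely the step between stiff serum + PD03 and soft serum + LIF at 24 h. Prdm14 also had a single step, between stiff serum + LIF + PD03 and soft serum + LIF at 24 h. Tfcp2l1 and Tbx3 each had 4 such steps, while Esrrb, Nr5a2 and Nr0b1 had 3 each. Below the groups with PD03, Tfcp2l1 stepped down from soft at 24 h (287 CPM) to stiff at 24 h (237), then from soft serum (201) to plastic (178) and from plastic to stiff serum (149.6). No neighbouring pair of Zfp42 groups passed. Per kilobase of exon, Zfp42 had the highest level in the 7 groups without PD03, at 272 CPM per kilobase on stiff substrates in serum + LIF, where Nanog had 98.9 and Prdm14 2.89. With PD03, Nanog took the first place, at 354 CPM per kilobase on stiff substrates in serum + LIF + PD03 against 255 for Zfp42. Prdm14 was lowest in all 11 groups. The order between these ends depended on the length used. Nr0b1 stood above Esrrb and Tfcp2l1 per kilobase of exon in the groups without PD03, and below both per kilobase of coding sequence.

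The first comparison asks what stiffness did in the 24-hour cultures with LIF, which came from a single pool. Total counts were 11124741 to 16539932 per library on soft and 19857202 to 22530889 on stiff substrates, without overlap. Depth and substrate thus went together here, and the part of depth was not tested. All 8 members were higher on soft substrates, where 1.03% of the 17702 genes were called higher, 2.52% lower and 3.55% in either direction. Their median log2 fold change was 0.29, and that of all genes was -0.0016. Esrrb read 321, 334 and 342 CPM on stiff and 388, 419 and 435 on soft substrates. Nanog read 197, 207 and 216 on stiff and 244, 267 and 279.7 on soft. Prdm14, the lowest member, read 6.27, 7.60 and 8.86 on stiff and 9.84, 10.9 and 12.4 on soft. In each of these, every soft library lay above every stiff one, as in the other members, and 17% of all genes had groups that did not overlap. The largest difference was that of Prdm14, with a log2 fold change of 0.54 (SE 0.13, adjusted p = 0.0047). Tbx3 differed by 0.35 (SE 0.049, adjusted p = 9.0e-07), Nanog by 0.35 (SE 0.057, adjusted p = 2.9e-05) and Esrrb by 0.32 (SE 0.046, adjusted p = 2.2e-06). Tfcp2l1 (0.27), Nr5a2 (0.27), Nr0b1 (0.24) and Zfp42 (0.21) differed least. Without 1 library the calls of Nr0b1 (without the first stiff or the first soft library, 0.21 and 0.21), Prdm14 (without the second stiff or the second soft, 0.43 and 0.45) and Zfp42 (without the third stiff, the first soft or the second soft, 0.16, 0.17 and 0.21) were lost, which left 6 or 7 of 8. With the pool as a term in the fit all 8 passed, but a pool term cannot alter a difference between groups of the same pool.

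Around these members at 24 h, 2 of the 8 network partners rose, namely Klf4 (0.36) and Klf2 (0.33), which encode Krüppel-like factors of the same network, and none fell. Pou5f1 (0.13) and Sox2 (0.10), which are shared by naive and formative cells, did not pass. Of 6 formative genes, Pou3f1 (-0.64) and Lef1 (-0.35) fell and Zic2 (0.41) rose. Among 7 genes that read ERK activity, Dusp4 (-0.45) and Dusp6 (-0.31), which encode phosphatases that ERK induces, fell. None of the 5 genes repressed by Prdm14 and none of the 4 genes of the LIF receptor chain passed. Of 6 factors that drive exit from the naive state, Tcf7l1 (0.19) rose. The summed CPM of 4 fibroblast markers (Col1a1, Col1a2, Thy1 and Postn) was 23.2 to 34.1 on soft and 49 to 55.6 on stiff substrates, with Postn at no more than 0.63 CPM in either mean. This sum moved with the substrate in each medium, and its part in the results was not tested.

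Without LIF, after 48 h in serum, all 8 members were again higher on soft substrates, against 2.08% of all genes called higher (2.77% lower, 4.85% in either direction). The median log2 fold change of the members was 0.39 and that of all genes 0.0021. Prdm14 read 4.29, 5.20 and 5.48 CPM on stiff and 8.28, 8.98 and 9.63 on soft substrates. Tbx3 read 67.5, 68.9 and 75.3 on stiff and 93, 97.8 and 99.99 on soft. Tfcp2l1 read 143, 151 and 156 on stiff and 196, 199 and 206 on soft. The libraries of the substrates did not overlap for any member, against 20.4% of all genes. Prdm14 differed by 0.87 (SE 0.14, adjusted p = 1.1e-05), which is 1.83-fold. Tbx3 (0.46, adjusted p = 7.2e-09), Esrrb (0.44, adjusted p = 1.4e-09) and Tfcp2l1 (0.42, adjusted p = 4.2e-08) followed. Nr0b1 had the smallest difference (0.21, SE 0.058, adjusted p = 0.023), and its call was lost without the first or the third stiff library (0.18 and 0.18) and without the second or the third soft library (0.22 and 0.18). Zfp42 had soft values of 517, 524 and 527 CPM against stiff values of 409.6, 438 and 441, a difference of 0.28 (SE 0.056).

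In the same medium, 4 of 8 network partners rose on soft substrates, namely Klf2 (0.42), Klf4 (0.40), Stat3 (0.23) and Sox2 (0.17). Of the LIF receptor chain (4 genes), Socs3 (0.44), the feedback inhibitor that STAT3 induces, and Stat3 rose. Dnmt3b (-0.37) and Dnmt3l (-0.27), 2 of the 5 genes repressed by Prdm14, fell, and so did Pou3f1 (-0.74) and Lef1 (-0.52) of 6 formative genes. Of the 7 ERK readouts Dusp4 (-0.70) fell, and none of 6 exit factors passed. The fibroblast sum was 21.2 to 28 CPM on soft and 43.5 to 51.2 on stiff substrates. With the pool as a term in the fit, over 45 possible assignments of libraries to pools, 5 to 7 members stayed past the threshold in serum. Esrrb, Nr5a2, Tfcp2l1, Prdm14 and Tbx3 did so in each assignment, Nanog in 38, Zfp42 in 20 and Nr0b1 in none. Only a single assignment can be the real one, so the number of assignments passed is not a degree of support. The soft and stiff serum groups share no pool, and the difference between their pools is estimated from the soft serum + PD03 libraries alone.

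With LIF present for 48 h, fewer members passed. Nr5a2 and Tbx3, 2 of 8, were higher on soft substrates, against 0.446% of all genes called higher (0.333% lower, 0.78% in either direction), and the median log2 fold change was 0.16 (all genes -0.0028). Nr5a2 read 89.6, 95.1 and 98.5 CPM on stiff and 109, 113 and 114 on soft substrates, without overlap, and differed by 0.25 (SE 0.048, adjusted p = 0.0041). Tbx3 read 92.6, 93.2 and 95.2 on stiff and 107, 109 and 115 on soft, also without overlap, and differed by 0.23 (SE 0.051, adjusted p = 0.011). Its call was lost without the first or the third stiff library (0.23 and 0.25), which left 1 of 8. Esrrb just missed the threshold (0.17, 95% CI 0.084 to 0.26, adjusted p = 0.051) and passed it with DESeq2 (0.18), with DESeq2 size factors (0.18), without a filter on low counts (0.19) and without the third soft library (0.19). Prdm14 overlapped between the substrates, with 6.88, 7.26 and 8.10 on stiff and 7.14, 9.71 and 11.6 on soft. It differed by 0.35 (95% CI 0.092 to 0.61, adjusted p = 0.26), by 0.19 without the third soft library and by 0.55 without the first, when it passed. The intervals of the others were -0.0041 to 0.22 for Nanog, -0.017 to 0.18 for Tfcp2l1, -0.019 to 0.21 for Nr0b1 and 0.027 to 0.24 for Zfp42. The groups did not overlap for 4 members, against 14.9% of all genes. With a pool term in the fit 0 or 1 member passed, Nr5a2 in 2 of 45 assignments. None of the network partners passed, while Tcf7l1 (0.22) of the exit factors and Zic2 (0.34) of the formative genes rose. The fibroblast sum was 23.6 to 28.5 CPM on soft and 30.9 to 38.3 on stiff.

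With MEK inhibited, soft substrates had the higher mean of all 8 genes, but only part of the differences passed. In serum + PD03 the members called were Nanog, Esrrb, Tfcp2l1 and Nr0b1, 4 of 8 against 2.13% of all genes called higher (3.42% lower, 5.55% in either direction). Their median was 0.15 (all genes 0.010). Nr0b1 read 40.9, 43.8 and 44.6 CPM on stiff and 50.04 to 55.5 (median 53.1, n = 6) on soft substrates, and differed by 0.30 (SE 0.058, adjusted p = 0.00029). Esrrb read 407, 413 and 432 on stiff and 477 to 505 (median 489, n = 6) on soft, and differed by 0.23 (SE 0.040, adjusted p = 4.8e-05). These groups did not overlap, nor did those of Nanog and Tfcp2l1, against 11.6% of all genes. Tfcp2l1 (0.16, adjusted p = 0.014) was lost without the first or the third stiff library (0.15 and 0.16), which left 2 of 8 members called. Nanog (0.15, adjusted p = 0.048) was lost without any of 8 of the 9 libraries, at values from 0.14 to 0.17, the exception being the second soft library. For Tbx3 the interval was 0.0025 to 0.16, for Nr5a2 -0.0068 to 0.15 and for Prdm14 -0.0081 to 0.29, and Zfp42 (0.12) passed without the third soft library (0.16). Given a pool term, Esrrb passed in all 45 assignments, Nr0b1 in 43, Zfp42 in 9, Tfcp2l1 in 3 and Nanog in none.

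In serum + LIF + PD03, 5 of 8 passed, against 2.8% of all genes called higher (4.82% lower, 7.61% in either direction), with a median of 0.19 (all genes 0.0049). Esrrb read 374, 376 and 384 CPM on stiff and 451, 455 and 484 on soft substrates, and differed by 0.29 (SE 0.045, adjusted p = 4.6e-06). Tbx3 read 559, 559 and 560.3 on stiff and 623, 623 and 656 on soft (0.18, adjusted p = 0.0074). Zfp42 read 476, 482 and 483 on stiff and 532, 553 and 560.5 on soft (0.19, adjusted p = 0.021). None of these overlapped, and 24.8% of all genes had groups without overlap. Nr0b1 (0.24) and Prdm14 (0.27) also passed. Esrrb was the only member whose call did not depend on any single library and held in all 45 pool assignments. Tbx3 was lost without the second soft library (0.15), Nr0b1 without any of 4 of the 6 libraries (0.20 to 0.28 over all 6), Zfp42 without any of 5 of the 6 (0.18 to 0.21) and Prdm14 without any of 6 of the 6 (0.22 to 0.30). As a result 2 or 3 members passed when a library was left out. The intervals of those not called were -0.0041 to 0.21 for Nanog, -0.0096 to 0.18 for Tfcp2l1 and 0.046 to 0.22 for Nr5a2. Of the network partners, 5 of 8 rose with LIF + PD03, led by Sox2 (0.26), Klf4 (0.23), Klf2 (0.21) and Klf5 (0.21), and 4 of 8 rose with PD03 alone. Fgfr2, a receptor gene of the list repressed by Prdm14, fell in both media (-0.26 with PD03 and -0.22 with LIF + PD03). Of the ERK readouts, Spry2 (0.35) rose with PD03 and Dusp4 (-0.56) fell with LIF + PD03. Of the LIF receptor chain, Socs3 (0.44), Stat3 (0.21) and Lifr (0.15) rose with PD03 and none with LIF + PD03. Of the formative genes, Sox3 (1.43), Zic2 (0.36) and Otx2 (0.35) rose with LIF + PD03 and none passed with PD03. The fibroblast sum was 27.2 to 40.8 CPM on soft and 84.1 to 90.3 on stiff with LIF + PD03, and 29.4 to 41.1 on soft and 65.4 to 76.6 on stiff with PD03 alone.

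**Figure D2:**
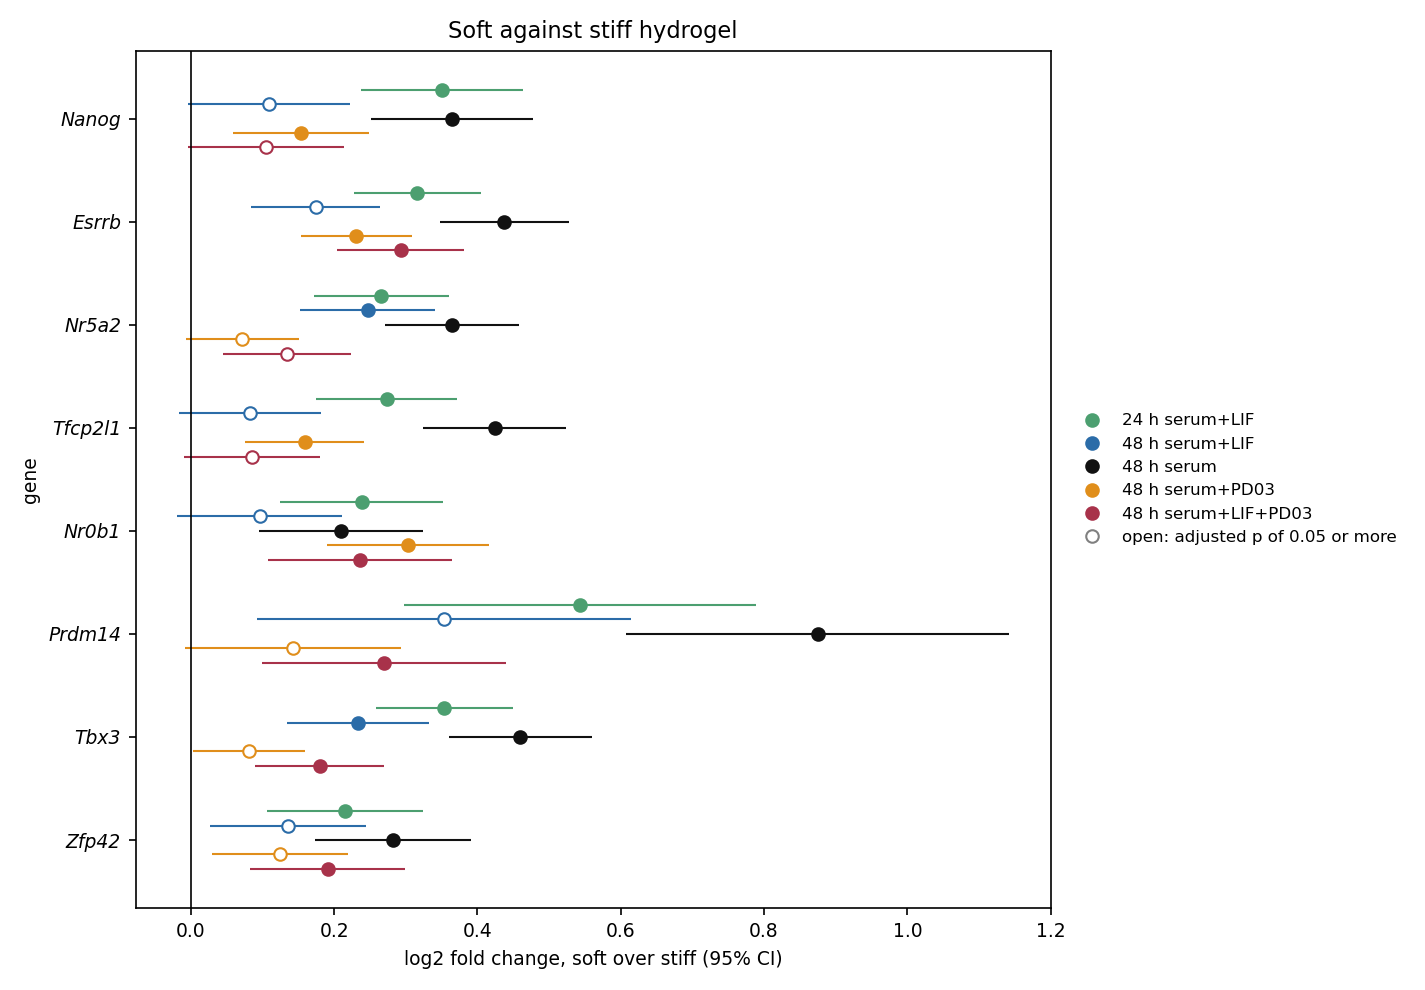
Difference between soft and stiff substrates for the 8 genes in 5 media and times. The x axis is the log2 fold change of soft over stiff with its 95% confidence interval, the y axis lists the genes, and filled points have an adjusted p under 0.05. Every point lies above 0, and the 24 h and 48 h serum differences are filled for all 8 genes, with Prdm14 in serum the largest at 0.87.

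Culture on hydrogels was then set against plastic, with serum + LIF for 48 h throughout. All 8 members were higher on soft gels than on plastic, against 5.29% of all genes called higher (6.47% lower, 11.8% in either direction), with a median of 0.59 (all genes -8.5e-05). Nr5a2 read 70.6, 71.7 and 74.6 CPM on plastic against 109, 113 and 114 on soft gels. Nr0b1 read 84.2, 101 and 103 on plastic against 144, 145 and 157. Esrrb read 239, 243 and 260.4 on plastic against 359, 370.3 and 378. These 3 nuclear receptor genes were apart from plastic by 0.63 (SE 0.049, adjusted p = 2.1e-14), 0.64 (SE 0.060, adjusted p = 9.6e-12) and 0.58 (SE 0.046, adjusted p = 5.4e-14). Prdm14 had the largest difference of the 8 members (0.69), and Tbx3 (0.60) lay between those of the nuclear receptor genes. Tfcp2l1 (0.35), Zfp42 (0.27) and Nanog (0.26) had smaller ones. No member overlapped, against 24.7% of all genes. Each call held without any 1 library.

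On stiff gels 5 of 8 members were higher than on the same plastic libraries, against 1.95% of all genes called higher (3.59% lower, 5.54% in either direction), with a median of 0.35 (all genes 7.5e-04). These were Nr0b1 (0.54, SE 0.060, adjusted p = 3.0e-09), Esrrb (0.40, SE 0.046), Nr5a2 (0.38, SE 0.049), Tbx3 (0.36, SE 0.052) and Tfcp2l1 (0.27, SE 0.051). The intervals of the others were 0.042 to 0.27 for Nanog, 0.053 to 0.62 for Prdm14 and 0.025 to 0.24 for Zfp42, and Nanog passed without the first plastic library (0.22). Groups did not overlap for 7 members, against 22.7% of all genes. The plastic libraries came from the first pool and most gel libraries of this medium from other pools. When the pool was fitted as a term, 3 to 7 members passed on soft and 4 or 5 on stiff gels, with Esrrb, Nr5a2 and Tbx3 in all 45 assignments on both. Of the network partners, 5 of 8 rose on soft gels against plastic, led by Klf2 (0.58), Gbx2 (0.31), Klf5 (0.28) and Klf4 (0.24), and 2 of 8 on stiff gels. Of the genes repressed by Prdm14, Dnmt3l (-0.44), Dnmt3b (-0.26), Fgfr2 (-0.23) and Fgfr1 (-0.17) fell on soft gels, 4 of 5. The fibroblast sum was 65.9 to 77.2 CPM on plastic, above both gels, and its part was not tested. Primitive endoderm markers (Gata6, Gata4, Sox17, Sox7, Pdgfra and Dab2) summed to 45 to 49.6 CPM on plastic and 54.9 to 68.4 on soft gels.

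**Figure D3:**
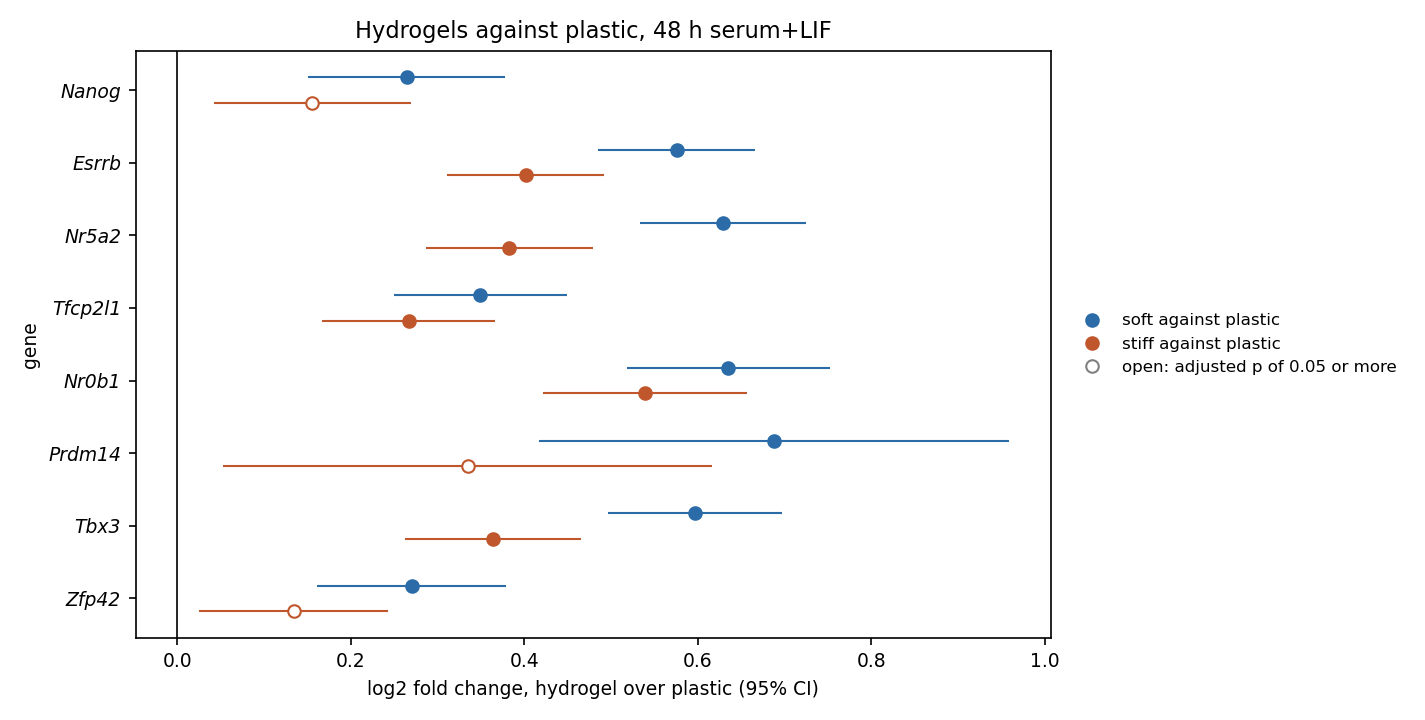
Difference between hydrogels and tissue culture plastic for the 8 genes after 48 h in serum + LIF. The x axis is the log2 fold change over plastic with its 95% confidence interval, the y axis lists the genes, and filled points have an adjusted p under 0.05. Soft gels are filled for all 8 genes and stiff gels for 5, and each stiff point lies to the left of its soft point.

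The response to LIF was read separately on each substrate. On stiff substrates in serum, 6 of 8 members rose with LIF, against 0.712% of all genes called higher (0.695% lower, 1.41% in either direction), with a median of 0.33 (all genes 0.0026). Tfcp2l1, the STAT3 target, went from 143, 151 and 156 to 207, 218 and 218 CPM and rose by 0.52 (SE 0.051, adjusted p = 1.6e-09). Tbx3 went from 67.5, 68.9 and 75.3 to 92.6, 93.2 and 95.2 CPM and rose by 0.41 (SE 0.052, adjusted p = 5.2e-07). Nanog went from 168, 173 and 186 to 212, 219 and 235 CPM and rose by 0.34 (SE 0.058, adjusted p = 0.00024). No member overlapped between the groups, against 16.9% of all genes. Esrrb rose by 0.33 (SE 0.046, adjusted p = 3.4e-06). Prdm14 (0.60, adjusted p = 0.018) lost its call without the first or the third library with LIF (0.54 and 0.62) or the first without it (0.47), and when only the groups compared were fitted (0.59). Zfp42 (0.25, adjusted p = 0.0076) lost its call without the first or the second library with LIF (0.22 and 0.23) or the first without it (0.22). The interval was 0.080 to 0.31 for Nr0b1 and 0.040 to 0.23 for Nr5a2, and neither passed. In fits with a pool term, Nanog, Esrrb, Tfcp2l1 and Tbx3 passed in all 45 assignments, Zfp42 in 31 and Prdm14 in 15.

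On soft substrates in serum, none of the 8 members passed with LIF, where 3 of 17702 genes did (0.0169%). The edgeR test gave 2 members an unadjusted p under 0.05, and DESeq2 called 1 member, Tbx3 (0.19). The median of the members was 0.081 (all genes -0.0011). Tfcp2l1 went from 196, 199 and 206 to 214, 232 and 234 CPM, and Tbx3 from 93, 97.8 and 99.99 to 107, 109 and 115, in both without overlap. Nanog went from 214, 230.3 and 235 to 228, 243 and 246 CPM, with overlap. Groups were apart for 3 members, against 11.4% of all genes. The intervals were 0.077 to 0.27 for Tfcp2l1, 0.087 to 0.28 for Tbx3, -0.033 to 0.19 for Nanog and -0.018 to 0.16 for Esrrb. The estimates on stiff substrates (0.52, 0.41, 0.34 and 0.33) have errors of their own, so these intervals do not test a difference between the substrates. The intervals of the other members were -0.075 to 0.11 for Nr5a2, -0.031 to 0.20 for Nr0b1, -0.17 to 0.32 for Prdm14 and -0.0053 to 0.21 for Zfp42. Prdm14 stood at 0.078 with all libraries and -0.089 without the third soft library with LIF.

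The difference between the LIF responses was tested directly as an interaction, given as the response on soft minus that on stiff substrates. Without PD03 it was below 0 for all 8 members and passed the test for Tfcp2l1 alone (-0.34, SE 0.072, adjusted p = 0.037), against 0.0847% of all genes. This call was lost with DESeq2 size factors (-0.32), when only the 4 groups were fitted (-0.34) and without any of 10 of the 12 libraries (-0.37 to -0.27). Under the pool term, Tfcp2l1 passed in 15 of 45 assignments. The other interactions ran from -0.52 for Prdm14 to -0.11 for Nr0b1. DESeq2 called 2 members. With PD03 the interaction was called for 0 of 8 members, with 0 at an unadjusted p under 0.05, against 0.00565% of all genes, and DESeq2 called 0.

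In the presence of PD03, no member passed the test for LIF on either substrate. On soft substrates the differences ran from -0.15 (95% CI -0.26 to -0.039) for Nr0b1 to 0.079 (95% CI 0.0014 to 0.16) for Nr5a2, and 0 of 8 passed in edgeR, 2 at an unadjusted p under 0.05. On stiff substrates they ran from -0.14 (95% CI -0.23 to -0.054) for Esrrb to 0.074 (95% CI -0.021 to 0.17) for Tfcp2l1, and 0 of 8 passed, 1 at an unadjusted p under 0.05. Of all genes 0.107% and 0.514% were called, and DESeq2 called 0 members in both. Esrrb on stiff substrates passed when only the groups compared were fitted (-0.15), with 407, 413 and 432 CPM without LIF and 374, 376 and 384 with it. With PD03 on stiff substrates, the fibroblast sum was 65.4 to 76.6 CPM without and 84.1 to 90.3 with LIF, and the trophoblast sum (Cdx2, Elf5, Gata3 and Tfap2c) 212 to 214 without and 231 to 250.4 with it.

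Other lists were read for LIF without PD03, where 1.41% of all genes were called on stiff substrates and 0.0169% on soft. Of the LIF receptor chain, Socs3 (0.76), Stat3 (0.32) and Il6st (0.27) rose on stiff, 3 of 4, and 1 of 4 passed on soft. Of the formative genes, 5 of 6 fell on stiff, led by Fgf5 (-1.32), Pou3f1 (-0.78), Otx2 (-0.63) and Lef1 (-0.53), and none passed on soft. Network partners rose in 3 of 8 on stiff, namely Klf4 (0.46), Stat3 and Klf2 (0.30), and in none on soft. The interaction of substrate and LIF passed for 1 of the 6 formative genes, Pou3f1 (0.58, SE 0.12, adjusted p = 0.037), and for none of the receptor chain or the network partners. On stiff substrates the fibroblast sum was 43.5 to 51.2 CPM without and 30.9 to 38.3 with LIF, with Col1a1 (-0.54) the 1 of 4 that fell. The trophoblast sum was 45.6 to 52.7 without and 57.6 to 60.6 with LIF. On soft substrates the fibroblast and trophoblast sums overlapped, and the neurectoderm sum (Sox1, Pax6 and Nes) was 72.3 to 73.2 without and 82 to 86.4 with LIF. The part of these markers in the LIF results was not tested.

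**Figure D4:**
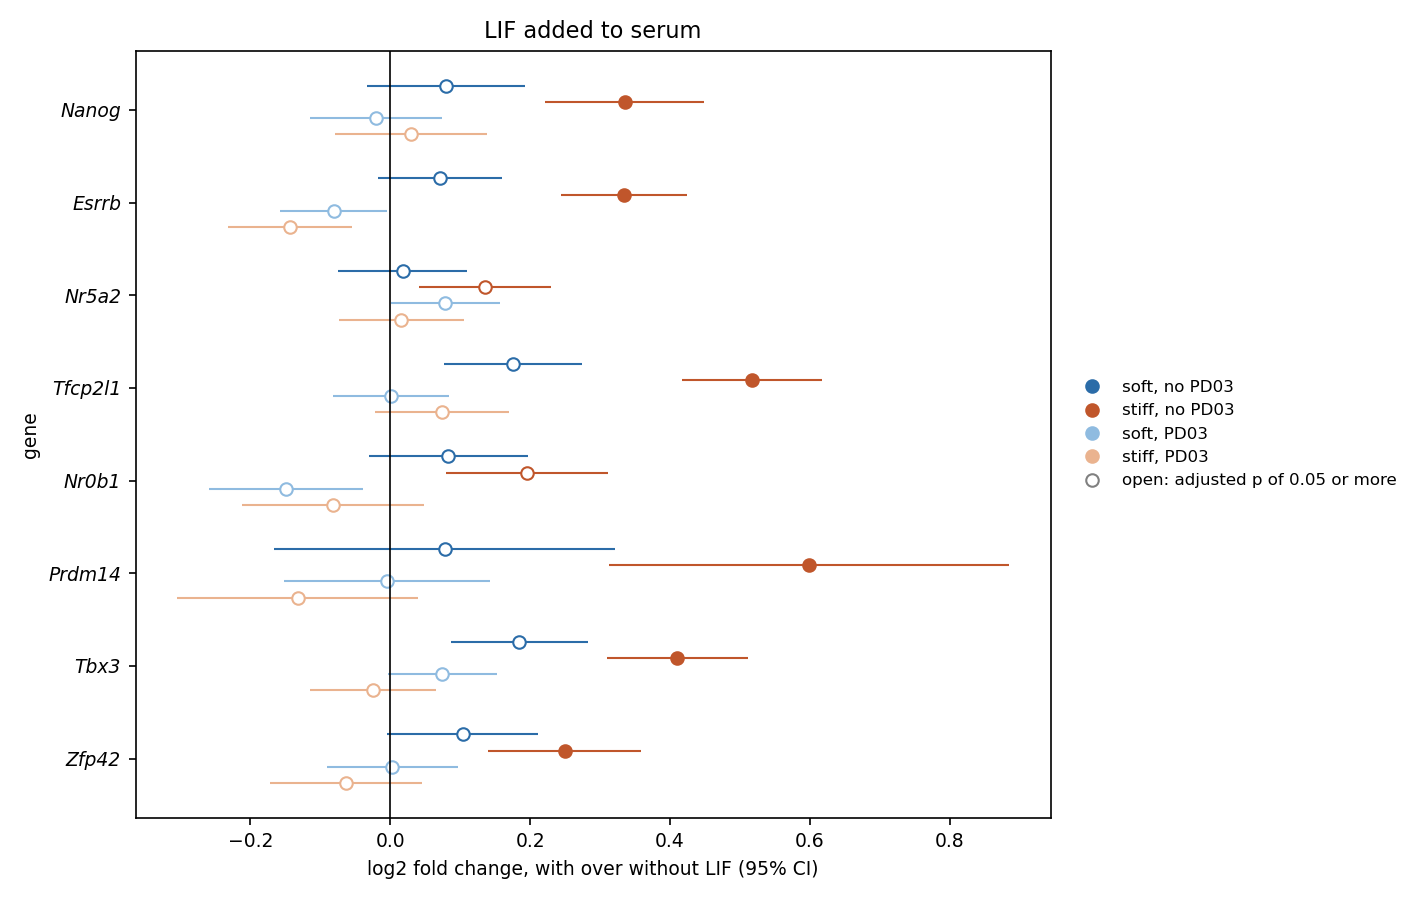
Response of the 8 genes to LIF on soft and stiff substrates, without and with PD03. The x axis is the log2 fold change with over without LIF with its 95% confidence interval, the y axis lists the genes, and filled points have an adjusted p under 0.05. The only filled points are 6 on stiff substrates without PD03, with Prdm14 at 0.60 and Tfcp2l1 at 0.52.

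Adding PD03 moved Nanog, Tfcp2l1, Nr0b1, Prdm14 and Tbx3 further than substrate or LIF did, in a contrast in which 54.4% of all genes were called on soft and 56.2% on stiff substrates with LIF. With LIF present 7 of 8 members passed on each substrate, 6 higher (27.8% of all genes on soft and 28.3% on stiff) and Nr0b1 lower (26.6% of all genes on soft and 27.8% on stiff). The median was 1.09 on soft and 1.14 on stiff, and that of all genes 0.0030 and -0.010. Tbx3 went from 107, 109 and 115 to 623, 623 and 656 CPM on soft substrates and from 92.6, 93.2 and 95.2 to 559, 559 and 560.3 on stiff. Prdm14 went from 7.14, 9.71 and 11.6 to 47.6, 49.4 and 53.3 on soft and from 6.88, 7.26 and 8.10 to 39.9, 41.4 and 43.5 on stiff. Nanog went from 228, 243 and 246 to 798, 876 and 888 on soft and from 212, 219 and 235 to 776, 792 and 815 on stiff. The lowest library with PD03 lay far above the highest without it in each of the 3 genes. Of all genes, 57.1% on soft and 62.9% on stiff had groups that did not overlap. Tbx3 rose 5.75-fold on soft and 5.97-fold on stiff, Prdm14 5.30-fold and 5.62-fold, and Nanog 3.57-fold and 3.58-fold. Tfcp2l1 rose 3.16-fold and 3.15-fold. The smaller rises were those of Nr5a2 (log2 0.52 and 0.63) and Esrrb (0.33 and 0.21).

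Nr0b1 was the member that fell, from 144, 145 and 157 to 45, 49.1 and 49.2 CPM on soft and from 131, 139.6 and 147 to 38.3, 40.2 and 43.3 on stiff substrates with LIF. Its log2 fold changes were -1.64 (SE 0.062, adjusted p = 4.8e-28) and -1.78 (SE 0.063, adjusted p = 2.1e-29), which correspond to 3.12-fold and 3.43-fold lower levels. Without LIF it was 2.65-fold lower on soft and 2.83-fold lower on stiff. Zfp42 did not pass with LIF present, at -0.033 (95% CI -0.14 to 0.076) on soft and -0.088 (95% CI -0.20 to 0.021) on stiff. Without LIF, Zfp42 went from 409.6, 438 and 441 to 495, 500.4 and 511 CPM on stiff and rose by 0.23 (SE 0.056, adjusted p = 0.00051). On soft it stood at 0.068 (95% CI -0.027 to 0.16) and passed without the third library with PD03 (0.11) and in 6 of 45 pool assignments.

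Without LIF, PD03 changed 7 of 8 members on soft (57.5% of all genes called, 29% higher and 28.5% lower) and 8 of 8 on stiff substrates (55.8% called, 28.4% higher and 27.4% lower). The medians were 1.16 and 1.42, and those of all genes -0.0017 and 0.0087. Prdm14 rose 9.33-fold on stiff, from 4.29, 5.20 and 5.48 to 43.7, 44.6 and 48.6 CPM, and 5.61-fold on soft, from 8.28, 8.98 and 9.63 to 46.5 to 53.7 (median 50.8, n = 6). Tbx3 rose 8.07-fold on stiff and 6.21-fold on soft. Tfcp2l1 rose 4.28-fold on stiff, from 143, 151 and 156 to 636, 637 and 647 CPM, and 3.56-fold on soft, from 196, 199 and 206 to 691 to 741 (median 711, n = 6). The members called with PD03 in these 4 comparisons, including Zfp42 on stiff without LIF, kept their calls without any 1 library and in each of the 45 pool assignments. On soft with LIF and on stiff without LIF, both groups came from a single pool. The pool term could not alter those differences, so the assignments say nothing about them.

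Other lists moved widely with PD03, and so did genes at large, with 54.4% to 57.5% of all genes called over the 4 comparisons. On soft substrates with LIF, 27.8% of all genes were called higher and 26.6% lower. All 7 ERK readouts fell in each of the 4 comparisons, led on soft substrates with LIF by Spry4 (-7.48), Etv4 (-5.62), Egr1 (-4.85) and Dusp4 (-2.82), with a median of -2.82. Dnmt3b (-2.24), Dnmt3l (-1.69) and Dnmt3a (-1.50), which encode de novo methyltransferases and their cofactor, fell, while Fgfr1 (0.92), also listed as repressed by Prdm14, rose with the other receptor gene of that list. Of the formative genes 4 of 6 fell, namely Lef1 (-5.19), Fgf5 (-3.98), Pou3f1 (-3.43) and Sox3 (-3.25), and 2 rose. Network partners divided into 5 that rose and 3 that fell, with Gbx2 (-5.20) and Klf2 (1.15) at the ends. Exit factors divided into 2 that rose, Tcf7l1 (1.19) and Otx2 (1.16), and 4 that fell. In the LIF receptor chain Socs3 (-0.46) and Stat3 (-0.25) fell.

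**Figure D5:**
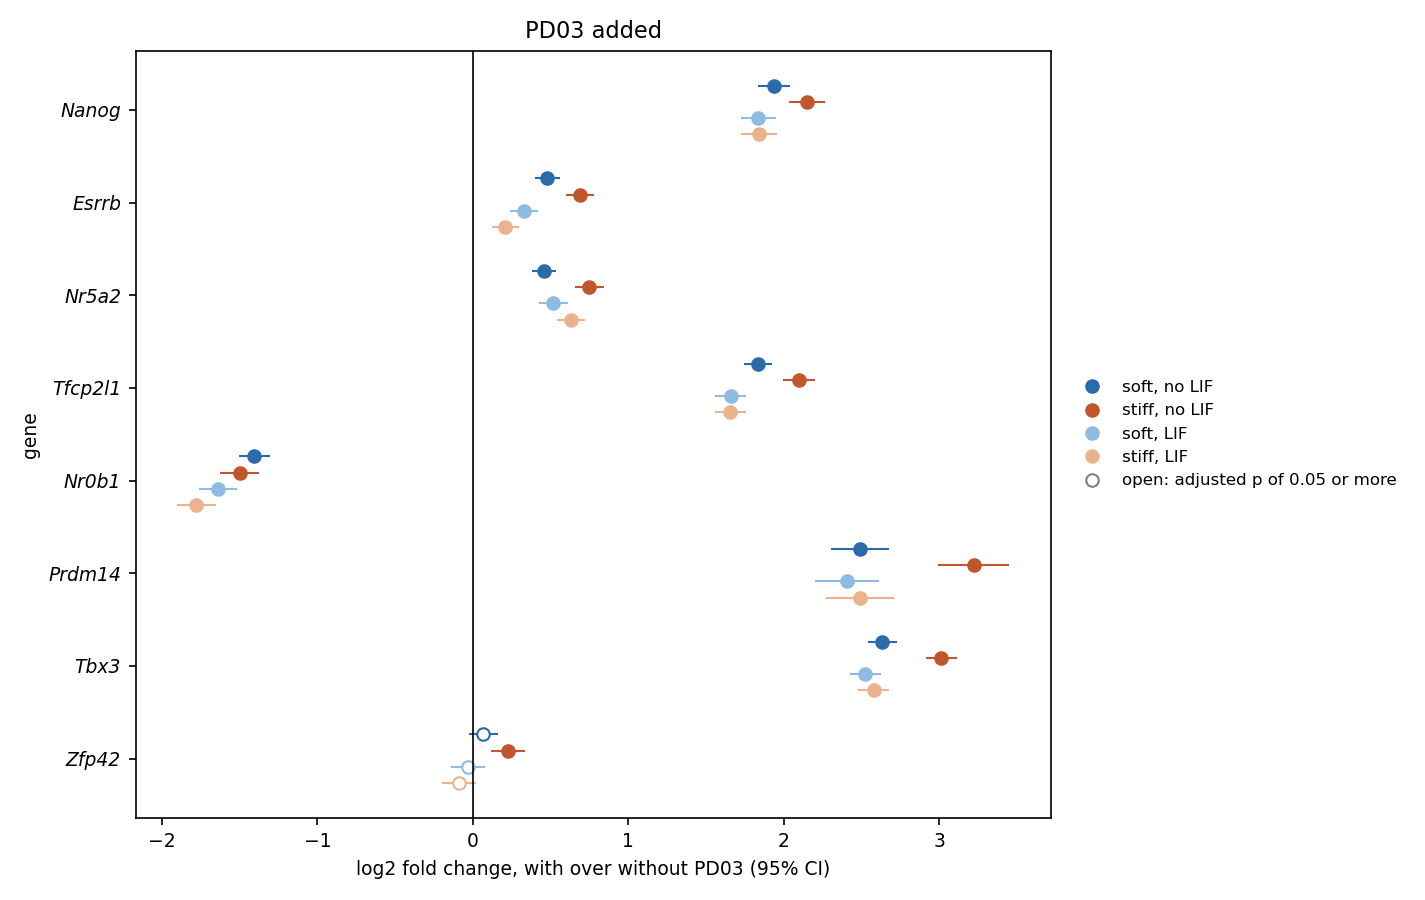
Response of the 8 genes to PD03 on soft and stiff substrates, without and with LIF. The x axis is the log2 fold change with over without PD03 with its 95% confidence interval, the y axis lists the genes, and filled points have an adjusted p under 0.05. Nanog, Tfcp2l1, Prdm14 and Tbx3 lie between 1.66 and 3.22, Esrrb and Nr5a2 between 0.21 and 0.75, Zfp42 between -0.088 and 0.23 with 1 of its 4 points filled, and Nr0b1 between -1.78 and -1.41.

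Markers of other cell types also moved with PD03. Trophoblast markers (Cdx2, Elf5, Gata3 and Tfap2c) summed to 202 to 208 CPM with and 54.3 to 65.3 without PD03 on soft substrates with LIF, and all 4 rose. Gata3 rose by 3.07 on the log2 scale, and Elf5 had a mean of no more than 0.58 CPM in any group. The primitive endoderm sum was 100.2 to 112 with and 54.9 to 68.4 without PD03, where Dab2 (1.61) rose while Sox7 (-2.31) and Gata4 (-0.82) fell. Mesendoderm markers (T, Mixl1, Eomes and Gsc) summed to 7.33 to 8.51 against 14.9 to 17 CPM, and neurectoderm markers (Sox1, Pax6 and Nes) to 89.4 to 98.7 against 82 to 86.4. The sum of 3 Zscan4 genes, which mark 2-cell-like cells, was 1.29 to 2.07 against 3.36 to 5.83 CPM. On stiff substrates with LIF the primitive endoderm sum was 129.7 to 139 with and 54.1 to 56.4 without PD03, and the trophoblast sum 231 to 250.4 with and 57.6 to 60.6 without it. The fibroblast sum there was 84.1 to 90.3 with and 30.9 to 38.3 without PD03, where Col1a1 (1.81), Col1a2 (1.27) and Postn (3.48) rose and Thy1 (-2.08) fell. On soft substrates with LIF it was 27.2 to 40.8 with and 23.6 to 28.5 without PD03, with overlap. The part of these markers in the PD03 results was not tested.

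Whether PD03 acted differently on the substrates was tested as an interaction, given as the response on soft minus that on stiff. Without LIF it passed for 4 of 8 members, against 0.39% of all genes called in that direction (0.797% in either). These were Tbx3 (-0.38, SE 0.065, adjusted p = 0.00041), Nr5a2 (-0.29, SE 0.062, adjusted p = 0.0091), Prdm14 (-0.73, SE 0.16, adjusted p = 0.0095) and Tfcp2l1 (-0.27, SE 0.066, adjusted p = 0.034). The soft minus stiff differences behind Prdm14 were 0.87 in serum and 0.14 in serum + PD03, and those behind Tbx3 0.46 and 0.081. Tbx3 kept its call without any 1 library. Nr5a2 lost it without the first stiff library with PD03 (-0.26), Prdm14 without the first stiff library in serum (-0.60) and Tfcp2l1 without any of 10 of the 15 libraries (-0.28 to -0.23). Without the first stiff library in serum or the first in serum + PD03, 2 of 8 members passed. Once the pool was a term in the fit, Nr5a2, Prdm14 and Tbx3 passed in all 45 assignments and Tfcp2l1 in 11. With LIF present 0 of 8 passed, 0 at an unadjusted p under 0.05, against 1.07% of all genes, and DESeq2 also called 0.

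How LIF and PD03 combined was tested as an interaction on each substrate. On stiff substrates the log2 response to LIF was lower in the presence of PD03 in 6 of 8 members, against 0.424% of all genes called in that direction (1.09% in either). With PD03 present, LIF gave a negative difference in 5 of all 8 members and a positive one in 3, and none passed. The interaction was -0.73 for Prdm14 (SE 0.17), -0.48 for Esrrb (SE 0.064, adjusted p = 6.5e-06), -0.44 for Tfcp2l1 (SE 0.071, adjusted p = 9.8e-05) and -0.44 for Tbx3 (SE 0.069, adjusted p = 9.8e-05). Zfp42 (-0.31, adjusted p = 0.029) and Nanog (-0.31, adjusted p = 0.042) also passed. Esrrb, Tfcp2l1 and Tbx3 kept their calls without any 1 library. Nanog lost it without any of 11 of the 12 libraries (-0.33 to -0.26), Zfp42 without any of 9 of the 12 (-0.34 to -0.28), and Prdm14 without the first library in serum (-0.60) or the first in serum + LIF (-0.67); without either of these, 3 of 8 members passed. Fitted with the pool, Esrrb, Tfcp2l1 and Tbx3 passed in all 45 assignments, Prdm14 in 30, Zfp42 in 23 and Nanog in 15. On soft substrates 0 of 8 members passed this interaction, 3 at an unadjusted p under 0.05, against 0.0226% of all genes, and DESeq2 called 0. The difference between the substrates in this interaction was not tested.

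Between 24 h and 48 h in serum + LIF, members moved in both directions, and 24-hour libraries came from another pool than most 48-hour libraries. On soft substrates 4 of 8 passed, 1 higher and 3 lower, against 24.4% of all genes (12.9% higher and 11.4% lower). On stiff substrates 3 of 8 passed, 1 higher and 2 lower, against 25.6% of all genes (12.6% higher and 13% lower). Tbx3 fell on both, from 148, 156 and 169 to 107, 109 and 115 CPM on soft and from 118, 124 and 128 to 92.6, 93.2 and 95.2 on stiff, with log2 fold changes of -0.52 (SE 0.050) and -0.40 (SE 0.050). Tfcp2l1 fell from 281, 285 and 295 to 214, 232 and 234 CPM on soft and from 218, 246 and 249 to 207, 218 and 218 on stiff (-0.34 and -0.15). The stiff call of Tfcp2l1 was lost without the first or the third library at 24 h or the third at 48 h (-0.13, -0.12 and -0.13) and without a filter on low counts (-0.15). Esrrb fell on soft (-0.17), which was lost without the first library at 24 h (-0.13) and without a filter (-0.14). Zfp42 rose on both, by 0.17 on soft and 0.25 on stiff, and the soft call was lost without the third library at 24 h (0.13) or the second at 48 h (0.15). With pools fitted, Tbx3 passed in all 45 assignments on both substrates, Tfcp2l1 in 15 on soft and none on stiff, and Zfp42 in 3 and 31. Prdm14 and Nanog did not pass on soft (-0.23 and -0.14), but did without the third library at 48 h (-0.40) and without the third at 24 h (-0.19), respectively. Members had medians of -0.15 and 0.0061, and all genes -0.028 and -0.015. The interaction of time and substrate was called for 0 of 8 members, 3 at an unadjusted p under 0.05, against 0.254% of all genes, and DESeq2 called 0. Other markers moved with time as well. On stiff substrates the fibroblast sum was 49 to 55.6 CPM at 24 h and 30.9 to 38.3 at 48 h, the neurectoderm sum 89.6 to 101 and 76.6 to 79.7, the trophoblast sum 72.8 to 75.6 and 57.6 to 60.6, and the 2-cell-like sum 4.99 to 5.45 and 8.74 to 11.1. On soft substrates the trophoblast sum was 68.6 to 74.7 at 24 h and 54.3 to 65.3 at 48 h, and the primitive endoderm sum 45.8 to 52 and 54.9 to 68.4. Their part in the differences with time was not tested.

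Groups that differ in both substrate and medium were set side by side. Soft substrates in serum against stiff substrates in serum + LIF gave differences from -0.094 for Tfcp2l1 to 0.28 for Prdm14, and 1 of 8 passed, Nr5a2 (0.23, SE 0.048, adjusted p = 0.0045), against 0.893% of all genes. Soft substrates in serum + PD03 against stiff substrates in serum + LIF + PD03 gave 4 of 8 members called, all higher on soft, against 14.3% of all genes. These were Nr0b1 (0.39, SE 0.057), Esrrb (0.37, SE 0.040), Prdm14 (0.27, SE 0.076) and Zfp42 (0.19, SE 0.048). The groups of the first comparison shared no sequencing pool, so pool cannot be told apart from substrate and medium there. Neither comparison was refitted with a pool term, with DESeq2 or without single libraries.

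The members were also compared by the shape of their levels over the 11 group means of log2 CPM, as a description. Among 10466 genes with a mean of at least 5 CPM, those most like Nanog by Pearson's r were Sun1 (0.998), Zbtb44 (0.998) and Mreg (0.998), and 1242 genes had r above 0.95. Tfcp2l1 was most like Tbx3 (0.997), Mok (0.996) and Ulk1 (0.996), and Tbx3 most like Slc44a1 (0.999), Ulk1 (0.998) and Cst3 (0.998). Prdm14 was most like Ly75 (0.998), Fam81a (0.998) and Dnajc6 (0.998). Above 0.95 were 1052 genes for Tfcp2l1, 1148 for Tbx3 and 1074 for Prdm14, so the names given are the top of long lists. Nanog, Tfcp2l1, Tbx3 and Prdm14 share the step between media with and without PD03. Esrrb was most like Triml2 (0.979), Fzd5 (0.978) and B4galnt4 (0.973), with 11 genes above 0.95, and Nr5a2 most like Dennd2c (0.979), Tcl1 (0.979) and Ifitm2 (0.978), with 88. Nr0b1 was most like A230050P20Rik (0.994) and Itgb7 (0.993), with 549. Zfp42 had no gene above 0.95, and the 3 most like it were Rchy1 (0.904), Ddx17 (0.897) and Gdf3 (0.895).

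Of the 28 pairs of members, 21 had a positive r over the 11 group means, and the 7 negative pairs were those of Nr0b1 with each other member. Over the 7 groups without PD03, all 28 pairs were positive, Nr0b1 with Esrrb at 0.93 and with Nanog at 0.73. Within groups, over the deviations of 36 libraries from their group means, 25 of 28 pairs were positive, with a median of 0.29 and the highest value, 0.68, for Nanog and Tfcp2l1. The libraries of a pair are the same, so that depth and composition are shared by both genes. The share of positive pairs among other genes was not computed, and the 28 pairs reuse the same genes and groups, so they are not independent.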

How the data were processed

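Bulk RNA-seq of 36 libraries of wild-type mESCs was analysed. The deposited values are raw counts per gene, which the authors made, per the submitters' processing notes, with STAR 2.5.2a and HTSeq on GRCm38 (mm10). How HTSeq treated strand and reads with several matches is not given in the sources used here. DESeq is also named there. The table held 49671 genes, of which 49326 had a symbol in GENCODE M21 and 13380 had no count. Total counts were 10405696 to 26635239 per library, and limit the precision of Prdm14 most, whose lowest count was 75.

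The tests used edgeR 4.0.16 under R 4.3.3. The filterByExpr filter left 17702 genes with 99.9% of counts, which were scaled with TMM and fitted by quasi-likelihood with 1 coefficient per group over all 11 groups. P-values were adjusted by Benjamini-Hochberg over 17702 genes with a threshold of 0.05, and log2 CPM for likeness used a prior count of 2. In simulated counts for soft against stiff at 24 h (17702 genes), 100% of 200 genes with a 2-fold change and a mean of at least 5 CPM were recovered, and 1.48% of 203 calls were false. Smaller changes, such as those of the members with substrate or LIF, were not simulated, so their recovery is not known. Alternatives were DESeq2 1.42.0, its size factors, no filter, fitting only the groups compared, leaving out each library and a term for the sequencing pool. Columns name no replicate, so the pool was fitted over each of 45 possible assignments. No 2 libraries of a group were alike within sampling noise (chi-square per gene 2.22 to 13.4 over 45 pairs). The members and the gene lists were chosen with earlier results of these data known. Named genes are the 8 members, up to 4 genes per list and comparison with the largest change past the threshold, and the 3 genes most like each member, of which 1 is not reported here. A few list genes below the threshold are given by value and were chosen after their values were seen.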

Additional observations from a re-analysis of the deposited data

Results flagged for a closer look

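The interaction tests set 11 results apart, each because the response differed between substrates, or between media on 1 substrate, past the adjusted threshold. The response to LIF without PD03 differed between soft and stiff substrates in Tfcp2l1 (-0.34 on the log2 scale, soft minus stiff). The response to PD03 without LIF differed between the substrates in Nr5a2 (-0.29), Tfcp2l1 (-0.27), Prdm14 (-0.73) and Tbx3 (-0.38). On stiff substrates the response to LIF differed with and without PD03 in Nanog (-0.31), Esrrb (-0.48), Tfcp2l1 (-0.44), Prdm14 (-0.73), Tbx3 (-0.44) and Zfp42 (-0.31). As given above, not all of these calls were stable. Tfcp2l1 in both substrate interactions, and Nanog and Zfp42 on stiff substrates, lost theirs without most of the single libraries. Nr5a2 and Prdm14 lost theirs without particular libraries. The calls of Tbx3 and Esrrb, and that of Tfcp2l1 for LIF by PD03, held without any 1 library. The same libraries in serum on stiff substrates enter all 3 interactions, so the 11 results are not independent of one another. In the group of 6 libraries on soft substrates in serum + PD03, no library of any member lay past Dixon's critical value of 0.625, and the groups of 3 were not tested for this.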

How the results depend on the processing

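No paired analysis was possible because the count columns carry no replicate numbers. Of 24 counts of members called, each stayed within 1.5 times without a filter on low counts. With DESeq2, LIF on soft substrates in serum gave 1 member in place of 0 and the interaction of substrate and LIF without PD03 gave 2 in place of 1. That interaction gave 0 with DESeq2 size factors, with only its own groups fitted and in the lowest of the pool assignments, and LIF on stiff substrates with PD03 gave 1 in place of 0 with only its own groups. With the pool as a term, the lowest and highest counts over the assignments were 0 and 1 for soft against stiff in serum + LIF at 48 h, 1 and 3 in serum + LIF + PD03, and 1 and 2 for 48 h against 24 h on soft substrates. The lowest were 5 in serum, 1 in serum + PD03, 3 for soft gels against plastic, 1 for 48 h against 24 h on stiff substrates and 3 for LIF by PD03 on stiff substrates. Also with the pool as a term, the lowest values changed sign for Nr0b1 (-0.042) and Zfp42 (-0.10) between soft and stiff in serum + LIF at 48 h, and for Zfp42 in serum + PD03 (-0.016), in serum + LIF + PD03 (-0.015), on soft gels against plastic (-0.011) and between times on soft substrates (-0.11). The fit with a pool term assumes additive pool effects. Without 1 library, counts ranged from 1 to 3 for soft against stiff in serum + LIF at 48 h, 2 to 4 in serum + PD03 and 2 to 3 in serum + LIF + PD03. They ranged from 0 to 1 for substrate by LIF without PD03, 2 to 4 for substrate by PD03 without LIF and 3 to 5 for LIF by PD03 on stiff substrates. The LIF response of Prdm14 on soft substrates in serum ranged from -0.089, without the third library with LIF, to 0.26, without the first. Single calls also changed for Nr0b1 in serum between soft and stiff (0.19) and Nanog in serum + PD03 (0.14), both lost without a filter, Nr5a2 in serum + LIF + PD03 (0.14), gained with DESeq2, and, with DESeq2 size factors, Tfcp2l1 in substrate by PD03 without LIF (-0.26) and Nanog in LIF by PD03 on stiff (-0.30), both lost. The cause of these changes was not tested.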
